A study of Arabidopsis thaliana with 12 samples.

Results

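A set of 5 genes of protein folding, translocation and proteolysis was followed on the arrays of this series: Cpn60beta3, Cpn60beta4, SECE1, TPP2 and AT5G46390. They were taken by name from the probes that the platform annotation gives to 1 gene only. Each had 1 such probe, so 5 of 691 genes with their own probe are described, and 5 of the 3439 probes of the table. The flu samples were Arabidopsis thaliana plants that lack FLU, a regulator of chlorophyll synthesis, and the WT samples were wild type. Both were of ecotype Landsberg and both were collected 30 min into the light after a dark period of 12 h, with 6 arrays per group. Neither the organ nor the growth stage is given in the sources used here, and of 10 marker genes for leaf, root, flower, seed and pollen 0 had a probe of their own, so the tissue was not checked. No probe is annotated to FLU alone, so its transcript could not serve as a check of the genotype.

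Most chloroplast proteins are made in the cytosol, imported, folded and, in part, moved on into the thylakoid membrane. Chaperonins of the Cpn60 type are barrel-shaped complexes built from alpha and beta subunits, in which imported proteins fold. The Sec translocase passes proteins into or across the thylakoid membrane, and peptidases trim the arriving proteins or remove damaged ones. In flu plants the chlorophyll precursor protochlorophyllide builds up in the dark and gives rise to singlet oxygen in the plastid once light returns.

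The members were selected on their function with the flu against WT differences of these arrays already known, and AT5G46390 was by then known to be among the genes with the biggest of them. Their differences are therefore given as a description. Where a member is said to have passed or not, this states its call in the fit across all probes and is not used as evidence about it. Arrays 1 and 2, 3 and 4, and 5 and 6 of a group resembled each other more than the other arrays of that group, and each of the 12 arrays was closest to its partner. Since 2 such arrays may hold the same sample, they were averaged, which left 3 pair means per group. Nothing in the labels says that the arrays came from separate plants, so errors rest on the spread between pair means, which may be technical. An SD given below is the spread of the 3 pair means of a group. An SE comes from the fit across all probes, and also draws on the variance of the other tested probes. The number of arrays limits the precision. Array sums of the deposited intensities were 3267 to 3350 in flu and 3247 to 3321 in WT, and array medians were 0.426 to 0.442 in flu and 0.443 to 0.491 in WT. Intensities below are quantile normalised, which also removed that shift between the groups. Each comes from 1 probe, and levels of different probes are not compared.

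The differences between flu and WT did not sort by function. The chaperonin gene Cpn60beta4 and the peptidase gene AT5G46390 were higher in flu on every array. The peptidase gene TPP2 was lower in flu on every array. SECE1 had a lower mean in flu and Cpn60beta3 a higher one, with overlapping arrays. In a limma fit across all 3128 probes that could be tested, 3 of the 5 members passed an adjusted p of 0.05, against 38.9% of all tested probes. Of these, 2 were higher in flu, against 17.5% of probes, and 1 was lower, against 21.4%. Nothing is read from these counts, since this contrast was known when the members were picked. The arrays of the groups did not overlap for the same 3 members, against 36.5% of all tested probes (15.8% with flu above and 20.7% with flu below). With the array pair as a block 4 of the 5 passed, SECE1 being the additional gene, against 43.8% of probes. In bulk tissue, fewer cells of a type and less RNA per cell cannot be told apart.

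**Figure D1:**
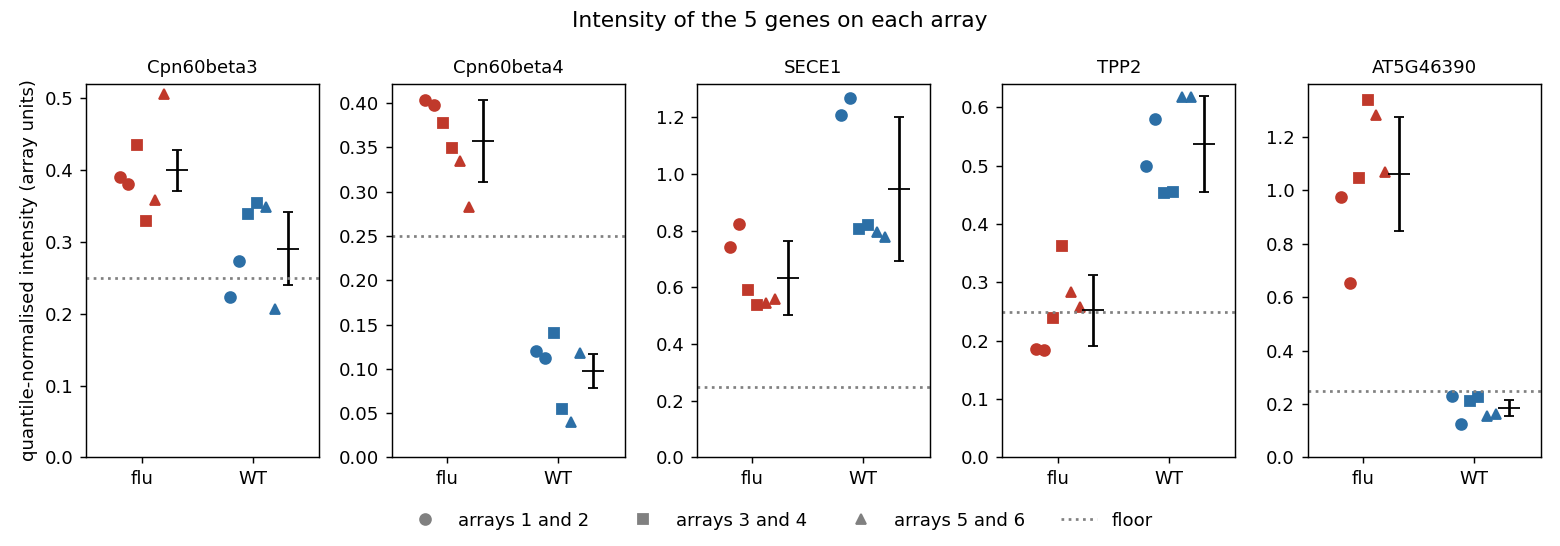
Quantile-normalised intensity (array units) of each of the 5 genes on the 6 flu and the 6 WT arrays, 1 point per array, with the marker shape giving the array pair. Bars are the mean and SD of the 3 pair means, the dotted line is the floor of 0.250, and all WT points of Cpn60beta4 and AT5G46390 lie below it.

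Cpn60beta3, which encodes a beta subunit of the plastid chaperonin, had intensities of 0.328, 0.385 and 0.505 in flu (lowest, median and highest of 6 arrays), against 0.207, 0.306 and 0.354 in WT. Of the 6 flu arrays 5 lay above the highest WT array, and 1 fell among the WT values. On the deposited scale only 2 flu arrays lay above the highest WT array, with 0.310, 0.360 and 0.478 in flu (lowest, median, highest) and 0.223, 0.326 and 0.398 in WT. The pair means were 0.385, 0.381 and 0.432 in flu and 0.248, 0.346 and 0.278 in WT. They averaged 0.399 ± 0.0282 in flu and 0.291 ± 0.0505 in WT (SD over the 3 pair means). The log2 difference, flu minus WT, was 0.41 (SE 0.14), a 1.32-fold higher value in flu. By pair it was 0.56, 0.13 and 0.53, so the middle pair showed the smallest difference. A floor of 0.250, the 25th percentile over all probes and arrays, replaced lower values before the log was taken. In WT 4 of 6 arrays were above the floor, and all 6 were in flu. With log2(intensity + 0.5) in place of the floor the difference was 0.19.

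Cpn60beta4 encodes a further beta subunit, known in Arabidopsis for folding a subunit of the chloroplast NDH complex. Its intensities were 0.283, 0.363 and 0.403 in flu (lowest, median and highest of 6 arrays), against 0.0399, 0.115 and 0.141 in WT. The groups did not overlap, and the dimmest flu array was brighter than the brightest WT array. Pair means were 0.401, 0.363 and 0.309 in flu and 0.116, 0.0973 and 0.0789 in WT. All 6 WT arrays were below the floor and all 6 flu arrays above it. On the quantile-normalised scale flu was thus at least 1.42-fold higher, with a log2 difference of 0.51 (SE 0.13) against the floor. The WT pair means, all set to the floor, add no spread to that SE. The size depends on where the floor is set: the difference was 1.55 with the floor at the 10th percentile and 0.06 at the 40th, where the gene no longer passed. It also did not pass on the deposited scale without further normalisation, at 0.41, nor when a pair was left out in 3 of 6 cases. These were the first flu pair (0.42), the middle flu pair (0.49) and the last WT pair (0.51). Leaving out any WT pair gave the same 0.51, since all are set to the floor. The lost call therefore says nothing about the last WT pair.

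Of the genes whose proteins work beside these chaperonins, few had a probe of their own, and probes shared by several genes were not used. Among 14 loci listed for plastid folding, 3 had a probe of their own, and 1 more gene, CCS, was found by the word chaperone in the gene table. CCS delivers copper to superoxide dismutase and does not fold imported proteins. The lists were drawn up with earlier results of these arrays known. AT5G55220, which the gene table leaves without a symbol, was dim in both groups: it had intensities of 0.0363, 0.101 and 0.141 in flu (lowest, median, highest), against 0.158, 0.202 and 0.364 in WT. Its flu arrays all lay below its WT arrays, and 0 of 6 flu and 2 of 6 WT arrays were above the floor. It did not pass (log2 difference -0.14, limma adjusted p = 0.497), but did with the floor at the 10th percentile (-0.84, limma adjusted p = 0.0374). It also passed with the dependence on probe number removed from log2(intensity + 0.5) (-0.57, limma adjusted p = 0.00987), a setting chosen after seeing the data. It did not pass with that dependence removed from the floored values (-0.57, limma adjusted p = 0.0503). Nor did it with log2(intensity + 0.5) alone (-0.29, limma adjusted p = 0.0615). CCS differed by -0.10 on the log2 scale (limma adjusted p = 0.570), with 1 flu array and 3 WT arrays above the floor. In this list 1 gene, the member Cpn60beta4, was higher in flu, against 16.9% of the 620 genes tested on their own probe, and 3 did not pass. The list median, CCS included, was 0.15, against -0.04 over all 620. Both include members that were picked with this contrast known, so nothing is read from the count or the median.

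SECE1 encodes the SecE subunit of the plastid Sec translocase, which holds the SecY channel in the membrane. It was at 0.537, 0.573 and 0.824 in flu (lowest, median, highest of 6 arrays), against 0.776, 0.813 and 1.27 in WT. Of the 6 flu arrays 5 lay below the lowest WT array, and the brightest flu array fell inside the WT range. Pair means were 0.784, 0.563 and 0.551 in flu and 1.24, 0.813 and 0.785 in WT. Arrays 1 and 2 were the brightest pair in both groups. On the log2 scale they stood above the other 2 pairs by 0.49 in flu and by 0.63 in WT. The mean was 0.633 ± 0.131 in flu and 0.945 ± 0.254 in WT (SD over the 3 pair means), and WT was 1.48-fold above flu.

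The log2 difference of SECE1 was -0.57 (SE 0.23), and by pair it was -0.66, -0.53 and -0.51. The difference thus varied less between pairs than the levels did. A block for the array pair takes out the level of each pair; SECE1 passed in the fit that had it and not in the fit that lacked it. All 12 arrays of SECE1 were above the floor, so its difference does not rest on it. Without flu arrays 1 and 2 it was -0.73, and without WT arrays 1 and 2 it was -0.36. Of 34 loci listed for translocation, SECE1 and AT4G38490 had a probe of their own, and AT4G38490 was at the floor on all 12 arrays and was not tested.

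TPP2 encodes tripeptidyl peptidase II, a large serine peptidase that takes tripeptides off the amino end of peptides. In animals it works in the cytosol behind the proteasome, and its place in the plant cell was not examined here. Its intensities were 0.184, 0.249 and 0.362 in flu (lowest, median, highest of 6 arrays), against 0.453, 0.539 and 0.618 in WT. Every flu array was below every WT array. Pair means were 0.185, 0.301 and 0.271 in flu and 0.539, 0.454 and 0.618 in WT. The average was 0.252 ± 0.0603 in flu and 0.537 ± 0.0822 in WT (SD over the 3 pair means). The log2 difference was -0.96 (SE 0.15), and WT was at least 1.95-fold above flu on the quantile-normalised scale. Both the difference and its SE draw on flu values set to the floor. By pair it was -1.11, -0.59 and -1.19, smallest for arrays 3 and 4. Only 3 of 6 flu arrays were above the floor, against 6 of 6 in WT, so the floor makes the difference smaller. Both flu arrays of the first pair were set to it. The difference was -1.12 without a floor, and also with the floor at the 10th percentile. It was -0.46 with log2(intensity + 0.5), where the added 0.5 itself draws it towards 0.

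AT5G46390 belongs to the C-terminal processing peptidases. A peptidase of this family trims the end of the D1 protein of photosystem II in cyanobacteria. The gene had intensities of 0.653, 1.06 and 1.34 in flu (lowest, median, highest of 6 arrays), against 0.124, 0.186 and 0.231 in WT. All flu arrays were far above all WT arrays, and no WT array reached the floor. Pair means were 0.814, 1.19 and 1.17 in flu and 0.178, 0.219 and 0.157 in WT. The average was 1.06 ± 0.214 in flu and 0.185 ± 0.0312 in WT (SD over the 3 pair means).

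The log2 difference of AT5G46390 against the floor was 2.05 (SE 0.18), so on the quantile-normalised scale the gene was at least 4.14-fold higher in flu. Its WT pair means, all set to the floor, add no spread to that SE. By pair the difference was 1.68, 2.25 and 2.23, and flu arrays 1 and 2 were 0.56 lower than the other flu pairs on the log2 scale. Another probe of the table is annotated to AT5G46390 together with other genes and was not used.

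The proteolysis list held 46 loci, of which 6 had a probe of their own, and all 6 were tested. Of these, AT5G46390 and AT3G02450 were higher in flu and TPP2, AT1G68660 and AT2G47390 were lower. That is 5 of 6 genes, against 36.8% of all 620 genes tested on their own probe (16.9% higher and 19.8% lower). AT5G46390 and TPP2 are members picked with this contrast known, so nothing is read from this count. SPPA, a signal peptide peptidase, did not pass: it had intensities of 0.449, 0.557 and 0.629 in flu (lowest, median, highest), against 0.597, 0.666 and 0.859 in WT, with a log2 difference of -0.34 (limma adjusted p = 0.118). AT3G02450, AT1G68660 and AT2G47390 have no symbol in the gene table, and their roles are not described here.

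AT3G02450 was at 0.870 ± 0.0883 in flu and 0.595 ± 0.0533 in WT (SD over the 3 pair means), and was higher in flu by 0.55 on the log2 scale (limma adjusted p = 0.0185). AT1G68660 was at 0.673 ± 0.123 in flu and 1.07 ± 0.112 in WT, and was lower in flu by 0.69 on the log2 scale (limma adjusted p = 0.0203). AT2G47390 was at 0.281 ± 0.0156 in flu and 0.488 ± 0.114 in WT, and was lower in flu by 0.76 on the log2 scale (limma adjusted p = 0.0195). The flu and WT arrays did not overlap for any of the 3 genes, as for 36.5% of all tested probes. Each of these calls was lost in some fits that left out 1 pair of arrays. AT3G02450 missed the threshold when flu pair 1 (0.47) or flu pair 3 (0.57) was left out. AT1G68660 missed it when flu pair 1 (-0.56), flu pair 2 (-0.68) or WT pair 1 (-0.60) was left out. AT2G47390 missed it when any of the 3 flu pairs was left out, with values from -0.79 to -0.72, and also with the floor at the 40th percentile (-0.41, limma adjusted p = 0.117); 4 of its 6 flu arrays were above the reported floor. The median of the proteolysis list, members included, was -0.51, against -0.04 over the 620 genes.

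**Figure D2:**
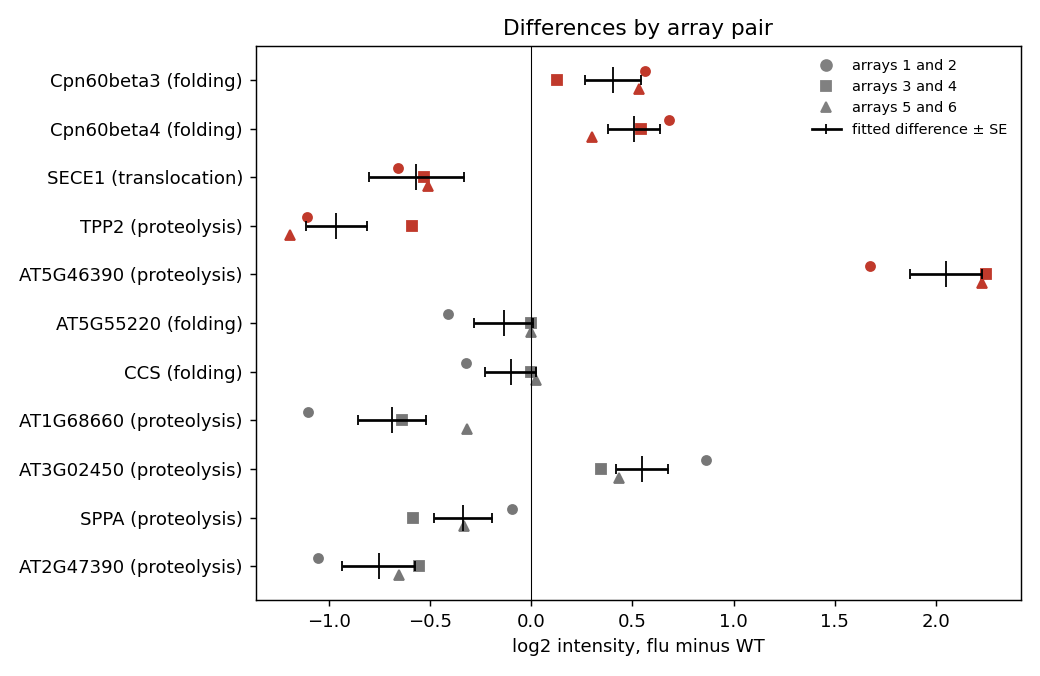
Log2 difference in intensity, flu minus WT, of the 5 members (red) and the 6 other tested genes of the folding and proteolysis lists (grey). Symbols give the difference within each array pair and black bars the fitted difference ± SE. In the proteolysis list AT5G46390 and AT3G02450 lie above 0 and the other 4 genes below it.

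Set against each other, the folding and translocation members averaged a log2 difference of 0.11 and the proteolysis members 0.54, but neither average describes its genes. The first spans -0.57 for SECE1 to 0.51 for Cpn60beta4, and the second -0.96 for TPP2 to 2.05 for AT5G46390. The class difference, folding and translocation minus proteolysis, was -0.43, and -0.09, -0.78 and -0.41 in the 3 array pairs. Without AT5G46390, which leaves TPP2 alone on the side of proteolysis, it was 1.08, so 1 gene sets its sign. With all members, its size also depends on the floor, where all WT arrays of Cpn60beta4 and AT5G46390 sit. The class difference was -0.22 with the floor at the 10th percentile and -0.60 at the 40th. The 11 tested genes of the 3 lists, CCS included, had a median difference of -0.14, with 3 higher in flu, 3 lower and 5 that did not pass. The 6 that are no members held 1 higher, 2 lower and 3 that did not pass, that is 3 of 6 against 36.8% of the 620 genes. CCS, which does not fold imported proteins, is among those that did not pass.

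Over the 12 arrays, deviations from the group means were compared on the floored values. The correlations of member with member ran from -0.57 (SECE1 and AT5G46390) to 0.47 (TPP2 and AT5G46390). All WT arrays of AT5G46390 and Cpn60beta4 sit at the floor. Above it are only 3 of 6 flu arrays of TPP2 and 4 of 6 WT arrays of Cpn60beta3. Whether the members share a course is therefore not read from these correlations. SECE1 followed AT4G25290 (Pearson r = 0.96) and AT1G79220 (0.94) most closely among 308 genes above the floor on every array. These shared the high arrays 1 and 2, though AT4G25290 had a log2 difference of 1.21 between flu and WT, opposite in sign to that of SECE1, and AT1G79220 one of -1.01. TPP2 was closest to AT2G47830 (0.81) and AT2G38550 (0.79), and Cpn60beta3 to AT5G38750 (0.80) and AT5G53930 (0.74). For Cpn60beta4, closest to GLDH (0.80) and AT3G52070 (0.80), and AT5G46390, closest to AT2G22890 (0.74) and AT3G50130 (0.71), the WT arrays sit at the floor and only the flu arrays vary. The points of each correlation share arrays and array pairs, and no test was made.

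Differences in this table can depend on the probe number. The numbering, which ends at 4607, falls into 16 equal stretches. At some of the members' places, probes at the same place in each stretch mostly differed between flu and WT in the same way. An earlier analysis of these arrays had chosen the length of the stretches on the same differences. How far this holds over all places is not given here. The 11 other tested probes at the place of Cpn60beta4 had a median log2 difference of 0.60, and 10 of them were higher in flu. The 0.51 of Cpn60beta4 is a lower bound set by the floor, so its place among them is not given. TPP2 had 12 such probes with a median of -0.62, of which 4 were higher in flu, and lay below 11 of them. The floor makes its difference smaller, since only 3 of its 6 flu arrays were above it. AT5G46390 had 10 with a median of 0.50, the highest at 2.05, and 9 of them were higher in flu. SECE1 had 15 with a median of 0.01, of which 8 were higher in flu. Cpn60beta3 had 9 with a median of 0.10, of which 5 were higher in flu. At the places of SECE1 and Cpn60beta3 the probes were thus split in direction.

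**Figure D3:**
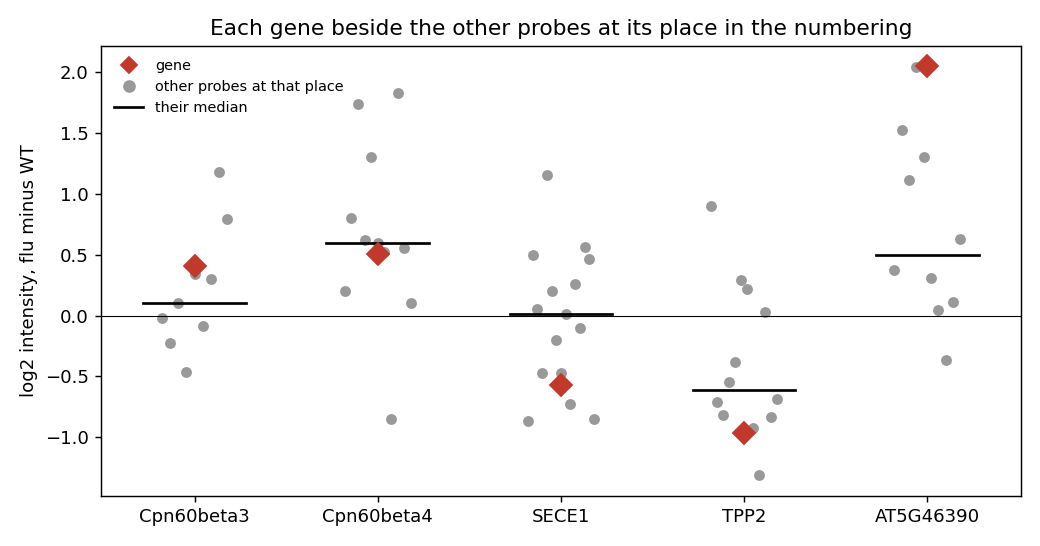
Log2 difference in intensity, flu minus WT, of each member (red diamond) and of the other tested probes at the same place in the 16 stretches of the numbering (grey points), with their median as a bar. The 11 probes beside Cpn60beta4 have a median of 0.60, and its own point is a lower bound, as is that of AT5G46390. The point of TPP2 is nearer 0 than it would be without the floor. SECE1 lies below a median of 0.01, and the probes beside AT5G46390 have one of 0.50.

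With the median deviation of the other probes at the same place taken off each array, 1 of the 5 members passed, AT5G46390, against 35.2% of probes. Its log2 difference was then 1.42 (SE 0.25). Cpn60beta4 stood at -0.16, with the sign turned, by a correction made on WT values that are all at the floor, and stood at 0.14 when it was made on log2(intensity + 0.5). TPP2 stood at -0.43 and did not pass. With the median taken over a wider window of probe numbers, 2 of the 5 passed, AT5G46390 at 1.66 and TPP2 at -0.55, against 36.4% of probes. SECE1 stood at -0.52 and Cpn60beta3 at 0.33, or at -0.39 and 0.12 with the wider window. AT3G02450, AT1G68660 and AT2G47390 also did not pass, at 0.31, -0.13 and -0.44 (limma adjusted p = 0.141, 0.585 and 0.0655). What part the probe number has in each difference was not tested beyond these corrections.

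**Figure D4:**
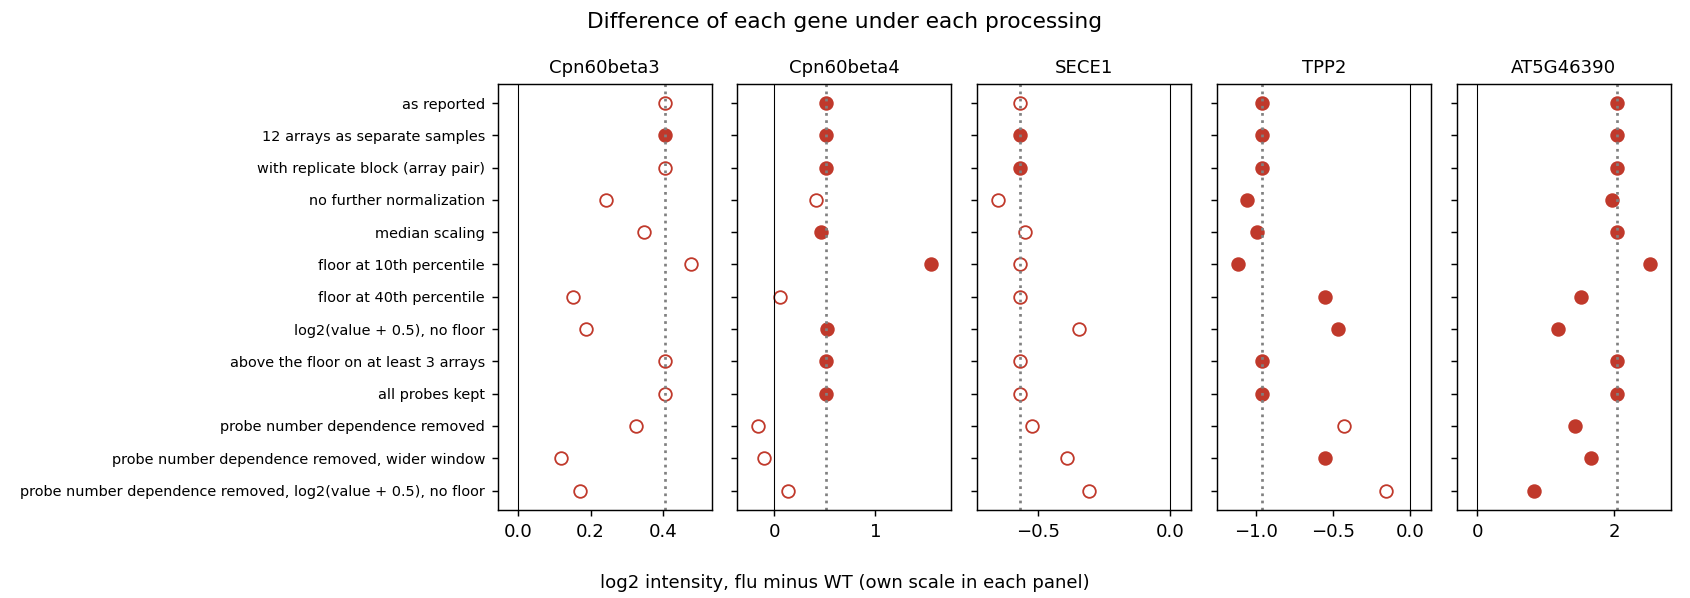
Log2 difference in intensity, flu minus WT, of each member under each processing, with filled circles where the gene passed an adjusted p of 0.05 in that fit and open circles where it did not. Each panel has its own scale and the dotted line marks the reported value. AT5G46390 ranged from 0.83 to 2.52, and Cpn60beta4 crossed 0 in 2 of them.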

How the data were processed

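The deposited series table holds, per the values, 1 intensity on a linear scale from 0 to 100 for each of 3439 probes on 12 arrays; no source used here states how the authors scanned, background-corrected or scaled them. Arrays were quantile normalised, values under the 25th percentile (0.250) were set to it, and log2 was taken; the 311 probes at that floor on every array were not tested. Means of arrays 1 and 2, 3 and 4, and 5 and 6 (3 per group) were compared with limma 3.58.1 in R 4.3.3 (two-sided, Benjamini-Hochberg over 3128 probes, threshold 0.05). Deviations correlated at 0.21 to 0.68 within these pairs and at -0.55 to -0.04 between other arrays of a group. Pair means of the same number in flu and WT deviated together (0.46, 0.38 and 0.26), so the block fit is given where it changes a call; this pairing comes from the data.

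Genes were named through the platform annotation, which can be old, and their symbols brought up to date with the TAIR10.1 gene table: 692 probes have 1 gene, 870 several and 1877 are not listed, and 690 of the 692 matched. The members and lists were chosen with earlier results of these data known. Named are the members, every tested gene of the lists, and for each member the 2 genes with the most similar deviations, the brighter probe standing for a gene with several. Sequences are not used here, and coordinates are not printed, since no source used here names the genome build of the probes. Alternatives were other normalisations, floors and filters, log2(value + 0.5), the 12 arrays as separate samples, the block, the removal of the dependence on probe number and leaving out each pair. The wider window (12 numbers to each side, same class modulo 6) and the removal on log2(value + 0.5) were chosen after seeing the data.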

Additional observations from a re-analysis of the deposited data

How the results depend on the processing

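The log2 difference of AT5G46390, flu minus WT, ran from 0.83 to 2.52 over the 18 alternatives; it was known to be large when the gene was picked, so its calls say nothing of stability. Over the same 18 Cpn60beta3 ran from 0.12 to 0.51, SECE1 from -0.73 to -0.31 and TPP2 from -1.12 to -0.15. With the 12 arrays as separate samples Cpn60beta3 (0.41), SECE1 (-0.57) and the list gene SPPA (-0.34) passed. With the replicate block SECE1 (-0.57) passed, and the block changed no other call among the genes named from the lists. Cpn60beta4 did not pass without further normalisation (0.41), with the floor at the 40th percentile (0.057) or with the dependence on probe number removed (-0.16, -0.10 with the wider window and 0.14 on log2(value + 0.5)). TPP2 did not pass with that dependence removed (-0.43, and -0.15 on log2(value + 0.5)). CCS, which did not pass in any, stood at 0.13 with the wider window and 0.005 without WT arrays 1 and 2. The cause was not tested. Leaving out 1 pair of arrays gave 0.31 to 0.51 for Cpn60beta3, which passed without WT arrays 3 and 4, 0.42 to 0.61 for Cpn60beta4, -0.73 to -0.36 for SECE1, -1.08 to -0.86 for TPP2 and 1.95 to 2.24 for AT5G46390. The class difference ran from -0.63 to -0.31 with 1 pair left out and from -0.68 to -0.22 over all 18, nearest 0 with the floor at the 10th percentile (-0.22) and with log2(value + 0.5) (-0.23). The added 0.5 draws log2 differences towards 0, so values with it are not on the scale of the others. The number of probes past the threshold was 1216, 840 to 1299 with 1 pair left out and 984 to 1732 under the others. No member had another probe of its own to try. Signal near the floor limits Cpn60beta4, TPP2, AT2G47390, AT5G55220, CCS and, in WT, Cpn60beta3 and AT5G46390.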
